A study of Mus musculus with 12 samples.

Results

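The Wnt ligands, their receptors and their extracellular and nuclear modulators were examined in bulk mouse brain tissue, as the 52 rows of 24421 in each deposited table whose symbols name a Wnt, Frizzled, Sfrp, Dkk, Rspo, Lgr (4 to 6), Axin, TCF/LEF, Rnf43 or Znrf3 gene. They comprised 19 Wnt ligands, 10 Frizzled receptors, 8 secreted inhibitors, 7 R-spondins and Lgr receptors, 2 ubiquitin ligases, 2 Axin scaffolds and 4 TCF/LEF transcription factors. RNA sequencing covered 12 libraries in 4 groups of 3: ependymomas of genotype ZFTA-RELA that also overexpressed a human variant of ETV5 (ETV5 tumours), ependymomas of that genotype that also overexpressed a human variant of NPY (NPY tumours), ependymomas of genotype ZFTA-RELA alone (control tumours), and wild-type, non-tumour cortex. ZFTA-RELA is a fusion of a zinc finger protein gene to the NF-kappaB subunit gene RELA, and all 9 tumours carried it. The labels give no age, sex or strain and do not say how the tumours were raised, and they do not say whether each replicate came from its own animal, so a p-value here reflects variation among the libraries, which may be technical in part.

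Wnt ligands are lipid-modified secreted proteins that bind a Frizzled receptor, in the canonical branch together with Lrp5 or Lrp6, and this keeps beta-catenin from the destruction complex built on the Axin scaffold. Stabilised beta-catenin enters the nucleus and acts through TCF/LEF factors, and Axin2, Rnf43, Znrf3 and Lgr5 are widely used transcriptional targets of that branch. Other ligands, such as Wnt5a and Wnt11, are best known for signalling independent of beta-catenin. In the developing forebrain, Wnt signals from the dorsal midline pattern the cortex.

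Depth was 6691146 to 11291057 reads in ETV5 tumours, 8214523 to 10481943 in NPY tumours, 6266613 to 9443466 in control tumours and 5962376 to 7444467 in cortex. Levels are CPM, reads scaled to a common library size, and levels of different genes are compared only as RPKM, which also divides by exon length. Mouse Etv5 stood at 401 to 474 CPM in ETV5 tumours and 264 to 322 CPM in control tumours, and mouse Npy at 2.19 to 15.9 CPM in NPY tumours and 21.5 to 46.1 CPM in control tumours. Whether reads of the human transgenes were counted at the mouse genes was not examined, so both group names follow the labels. The summed level of 11 neuron markers was 63.8 to 846 CPM in ETV5 tumours, 57.0 to 67.9 CPM in NPY tumours, 541 to 1296 CPM in control tumours and 9461 to 10970 CPM in cortex, and of these markers only Neurod6 was at 0 in a whole group (NPY). The summed level of 8 meningeal fibroblast markers was 920 to 1473 CPM in ETV5 tumours, 870 to 2059 CPM in NPY tumours, 2198 to 3016 CPM in control tumours and 100 to 122 CPM in cortex. In bulk tissue, fewer cells of a type and less RNA per cell cannot be told apart. The sample codes of all NPY tumours and of ETV5 tumour 3 begin with EC and the others with DS; the meaning of the codes is not stated, and code and group cannot be told apart between NPY and control tumours.

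In control tumours all 4 TCF/LEF factors and 6 of 10 Frizzled receptors were higher than in cortex, while the ligands divided into 5 higher and 6 lower of 12 tested. Counted in either direction, 30 of the 40 members tested were called (75%), a share close to that of all genes (72%). After the filter on low reads, 40 of the 52 members could be tested, and 21 were higher (52.5%) and 9 lower (22.5%) in control tumours at an adjusted p under 0.05 (limma, Benjamini-Hochberg over all genes). Among all 14621 genes tested the shares were 35.7% higher and 36.2% lower. The median log2 fold change was 1.16 over the 40 members and -0.00316 over all genes. The remaining 12 members (Wnt3a, Wnt6, Wnt8a, Wnt8b, Wnt9b, Wnt10b, Wnt16, Dkk1, Dkk2, Dkk4, Sfrp5 and Rspo4) had too few reads for this test. In CPM, 18 of the 40 members (45%) lay higher in all 9 tumours than in all 3 cortex libraries, against 35.9% of all genes, and 7 (17.5%) lay lower, against 27.9%.

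**Figure D1:**
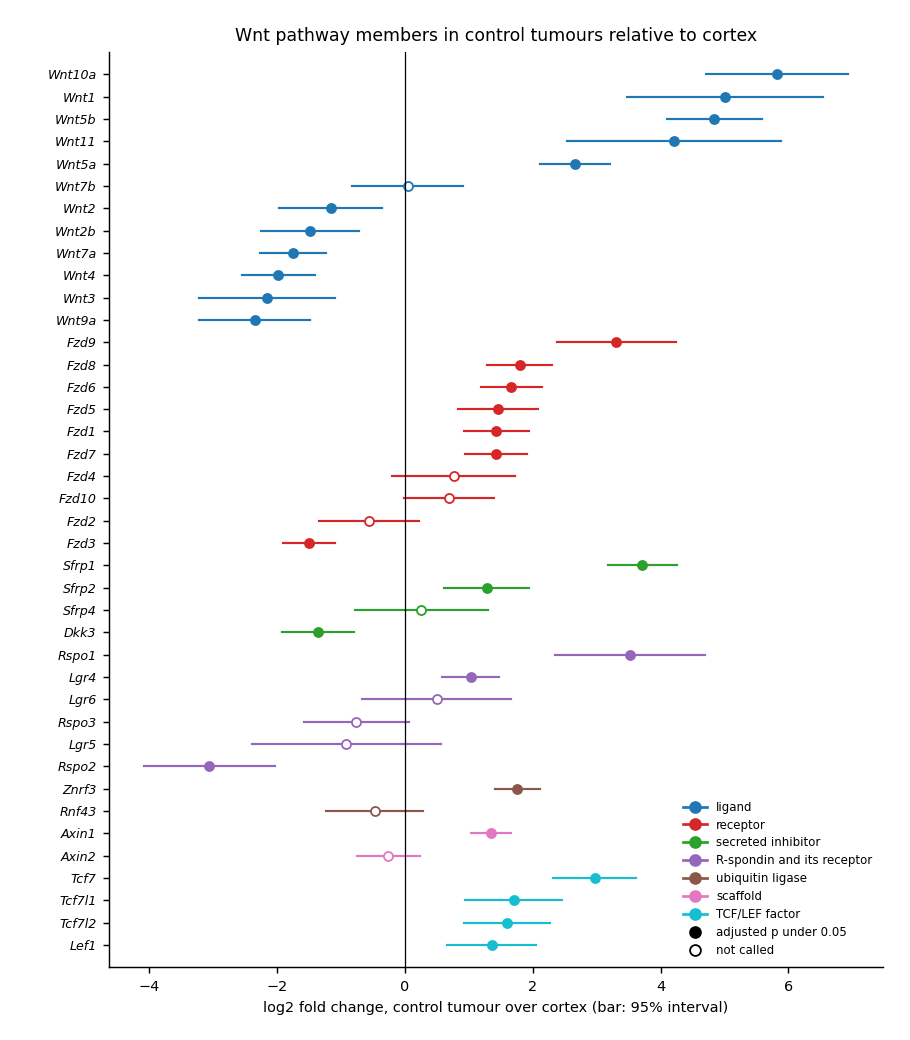
Log2 fold change of the 40 tested members, control tumours over cortex, with unadjusted 95% intervals from limma (3 libraries each), ordered by role; filled points passed an adjusted p of 0.05. Ligands split into 5 higher and 6 lower, whereas all 4 TCF/LEF factors and 6 of 10 Frizzled receptors were higher in control tumours. Of all genes tested, 35.7% were higher and 36.2% lower.

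The ligands moved in both directions. Of 12 tested, 5 were higher in control tumours (Wnt10a, Wnt1, Wnt5b, Wnt11 and Wnt5a), 6 were lower (Wnt9a, Wnt3, Wnt4, Wnt7a, Wnt2b and Wnt2), and Wnt7b was not called. All genes also moved both ways, 35.7% higher and 36.2% lower, beside which these counts are to be read. Wnt10a (chromosome 1, 74791516 to 74804179, plus strand), a canonical ligand known from tooth, hair and skin development, had 389, 222 and 112 CPM in control tumours, against 2.28, 5.54 and 2.64 CPM in cortex. The lowest tumour stood far above the highest cortex library, although the 3 tumours varied among themselves. Its log2 fold change was 5.82 ± 0.48 (SE, n = 3 each; adjusted p = 1.13e-05 by limma). Levels in the other tumours were as scattered, at 227, 149 and 543 CPM with ETV5 and 109, 512 and 101 CPM with NPY.

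Wnt5b, a ligand mostly linked to beta-catenin-independent signalling, had 63.6, 40.2 and 64.2 CPM in control tumours, against 2.15, 1.84 and 0.974 CPM in cortex (log2 fold change 4.84 ± 0.32, adjusted p = 3.71e-06 by limma). Wnt5a, which signals through Ror receptors, had 73.4, 38.6 and 61.1 CPM in control tumours and 9.27, 6.54 and 7.66 CPM in cortex, with a log2 fold change of 2.66 ± 0.24 (adjusted p = 1.77e-05). Both genes separated the groups with no overlap. Wnt11, a ligand of convergent extension movements, had 10.7, 4.62 and 7.50 CPM in control tumours, against 0.269, 0 and 0.835 CPM in cortex (4.21 ± 0.73 on the log2 scale, adjusted p = 0.000836). Its log2 fold change was 3.43 without cortex replicate 2 (adjusted p = 0.00132) and 4.92 without cortex replicate 3 (adjusted p = 0.000421). Wnt1, the canonical ligand of the midbrain-hindbrain boundary, had 175, 39 and 50 reads in control tumours and 1, 2 and 0 reads in cortex. Scaled to library size, this is a ratio of 73.1, with an exact 95% interval of 24.7 to 357 that covers counting error only.

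Among the falling ligands, Wnt9a had 8.05, 3.41 and 3.67 CPM in control tumours, against 20.6, 30.5 and 15.9 CPM in cortex (log2 fold change -2.35 ± 0.38, adjusted p = 0.000575 by limma). Wnt7a, a ligand of neural progenitors and of the brain vasculature, had 5.40, 4.29 and 4.95 CPM in control tumours and 13.6, 12.9 and 18.4 CPM in cortex, a log2 fold change of -1.75 ± 0.22 (adjusted p = 0.000136). Wnt4 fell by 1.98 on the log2 scale, to 5.08, 5.50 and 9.26 CPM in control tumours, against 20.3, 25.7 and 22.3 CPM in cortex (adjusted p = 0.000132). Each of these 3 genes was lower in every control tumour than in every cortex library. Wnt3 (-2.15 ± 0.47), Wnt2b (-1.49 ± 0.33) and Wnt2 (-1.16 ± 0.35) were also lower, and none of them exceeded 5.51 CPM in cortex. The call of Wnt2 was lost without cortex replicate 3 (log2 fold change -0.91, adjusted p = 0.0765). Beside these falls, all 11 neuron markers, all 6 oligodendrocyte markers, 6 of 7 astrocyte markers and 5 of 7 choroid plexus markers were lower in control tumours, while the choroid plexus marker Aqp1 was higher. The oligodendrocyte list summed to 1782 to 3703 CPM in control tumours and 13820 to 17410 CPM in cortex, and the astrocyte list to 1873 to 2180 CPM in control tumours and 6318 to 7604 CPM in cortex. The choroid plexus list summed to 41.1 to 150.2 CPM in control tumours and 572 to 1404 CPM in cortex. Otx2, of that list, was at 0 in all control tumours, and no neuron marker was. The part of these cells in the ligand falls was not tested.

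Wnt7b, a close relative of Wnt7a, was not called. It had 30.7, 64.1 and 19.9 CPM in control tumours, against 28.2, 31.0 and 28.5 CPM in cortex. The cortex libraries lay within the spread of the tumours, and the 95% interval of the log2 fold change ran from -0.84 to 0.93.

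Per exon length, the most abundant ligand was Wnt10a in each of the 3 tumour groups and, by the mean, Wnt9a in cortex. Wnt10a averaged 124 ± 84.5 RPKM in ETV5 tumours, 97.5 ± 95.1 RPKM in NPY tumours and 97.7 ± 56.5 RPKM in control tumours (SD, n = 3 each), and Wnt9a averaged 6.70 ± 2.25 RPKM in cortex. Wnt10a made up 65.3 ± 13.7% of the summed ligand RPKM in ETV5 tumours, 52.6 ± 12.5% in NPY tumours and 62.8 ± 12.7% in control tumours, against 4.48 ± 1.93% in cortex. In cortex the sum was shared among Wnt9a (21.5 ± 5.7%), Wnt7b (19.4 ± 0.4%), Wnt4 (17.5 ± 1.0%) and Wnt7a (15.4 ± 3.8%). Wnt9a led in cortex replicates 1 and 2 and came behind the other 3 of these ligands in cortex replicate 3, at 16.1%. The sum itself was 107 to 271 RPKM in ETV5 tumours, 92.8 to 309.6 RPKM in NPY tumours, 94.1 to 218 RPKM in control tumours and 29.4 to 33.5 RPKM in cortex. The groups of tumours overlapped one another in both measures, and every tumour lay above every cortex library. These shares are descriptions of the libraries and were not tested.

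**Figure D2:**
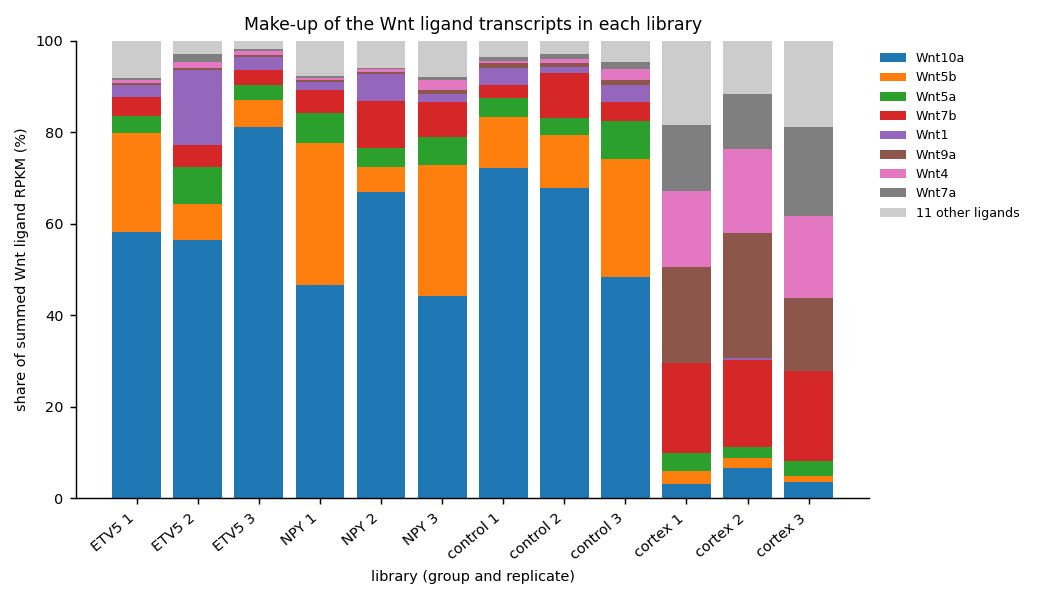
Share of each Wnt ligand in the summed ligand RPKM (in percent), 1 bar per library, with 8 ligands by name and the other 11 together. Wnt10a is the largest block in all 9 tumours, while no single ligand dominates in the 3 cortex libraries.

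Several ligand genes lie side by side in the genome. Wnt6 lies 6.2 kb from Wnt10a on the same strand of chromosome 1, and had 5.30, 1.98 and 0.957 CPM in control tumours and 0.672, 1.006 and 0.974 CPM in cortex. Wnt6 overlapped between the groups, whereas Wnt10a did not. Wnt10b lies 11.7 kb from Wnt1 on the opposite strand of chromosome 15 and had 3.60, 0.220 and 0.798 CPM in control tumours, against 0.403, 0.335 and 0.974 CPM in cortex. It reached 28.6 CPM in NPY tumour 2, the library with the highest Wnt1 (43.1 CPM), but 1.49 CPM in ETV5 tumour 2, where Wnt1 was 42.0 CPM. Wnt3a, 16.2 kb from Wnt9a, had 0 reads in control tumours and cortex, 14 reads in ETV5 tumours (12 of them in ETV5 tumour 2) and 2 reads in NPY tumours. With the 3 reads that a count of 0 allows in control tumours, the pooled level in ETV5 tumours was at least 4.52-fold higher. This bound allows for counting error in the control tumours only and rests mostly on ETV5 tumour 2. Wnt3 and Wnt9b lie 24.3 kb apart on chromosome 11, and in NPY tumours they had 1 and 2 reads in all.

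The promoters of the rising ligands Wnt5b and Wnt11 are shown because they alone, among the members with a promoter sequence, hold CTTTGAT. This is the only form of the TCF/LEF recognition core that was searched for. RefSeq promoters of build GRCm38.p6 (equivalent to mm10), running from 250 bases before an annotated start to 50 after it, were found for 35 of the 52 members. Wnt5b lies on the minus strand (chr6:119449337-119449636) and Wnt11 on the plus strand (chr7:98834862-98835161), and each sequence reads 5′ to 3′ along its gene. Wnt5b has 3 promoter entries, and the one shown belongs to an internal start, 95 kb downstream of the outermost start of the gene; which start was used in these samples was not measured. Capitals mark the motif CTTTGAT, read on either strand, which occurs in 3.73% of 32851 promoters of this length and in 2 of the 44 promoter entries of the members.
Wnt5b: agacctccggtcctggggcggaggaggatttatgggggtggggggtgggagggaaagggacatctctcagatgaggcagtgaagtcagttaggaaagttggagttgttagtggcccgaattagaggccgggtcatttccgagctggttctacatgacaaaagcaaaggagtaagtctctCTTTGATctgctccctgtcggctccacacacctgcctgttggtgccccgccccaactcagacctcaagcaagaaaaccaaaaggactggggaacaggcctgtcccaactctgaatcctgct
Wnt11: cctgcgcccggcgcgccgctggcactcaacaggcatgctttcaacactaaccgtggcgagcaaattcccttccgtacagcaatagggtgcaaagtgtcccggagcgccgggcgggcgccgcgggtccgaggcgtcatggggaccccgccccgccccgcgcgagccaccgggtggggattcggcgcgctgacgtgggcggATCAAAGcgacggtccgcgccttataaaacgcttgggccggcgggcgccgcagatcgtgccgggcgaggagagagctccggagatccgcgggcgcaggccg
In Wnt5b the motif stands on the gene's strand, beginning at base -71 from that internal start, and in Wnt11 it stands on the other strand, from base -51. A match describes these letters and is no evidence of binding. No promoter sequence was matched for Wnt10a, Wnt5a, Wnt7b, Wnt8a, Fzd2, Fzd3, Fzd6, Fzd8, Sfrp1, Sfrp4, Dkk3, Dkk4, Rspo2, Rspo3, Lgr5, Znrf3 or Axin1.

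Of the 10 Frizzled receptors, all tested, 6 were higher in control tumours (Fzd9, Fzd8, Fzd6, Fzd5, Fzd1 and Fzd7), Fzd3 was lower, and Fzd2, Fzd4 and Fzd10 were not called. Fzd9 (chromosome 5, 135248938 to 135251230, minus strand), a receptor of neural precursors, had 66.6, 104 and 33.2 CPM in control tumours, against 5.10, 4.19 and 7.24 CPM in cortex. The groups did not overlap, and the log2 fold change was 3.31 ± 0.41 (adjusted p = 0.00011 by limma). The other 5 rises ran from 1.43 (Fzd1, Fzd7) to 1.79 (Fzd8) on the log2 scale. Fzd8, for example, had 17.05, 13.5 and 15.3 CPM in control tumours and 3.90, 3.19 and 4.46 CPM in cortex.

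Fzd3, the Frizzled of planar polarity and axon guidance, had 44.6, 57.1 and 77.1 CPM in control tumours and 140.4, 144 and 151 CPM in cortex. Every tumour lay below every cortex library (log2 fold change -1.49 ± 0.18, adjusted p = 9.27e-05 by limma), beside the fall of the neuron markers given above. Per exon length, Fzd9 was the most abundant Frizzled in each tumour group, at 35.1 ± 8.6 RPKM in ETV5 tumours, 35.0 ± 28.5 RPKM in NPY tumours and 29.6 ± 15.5 RPKM in control tumours, with Fzd1 second. In cortex Fzd3 came first, at 11.3 ± 0.4 RPKM, and Fzd1 second.

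Among the secreted inhibitors, Sfrp1 and Sfrp2 were higher in control tumours, Dkk3 was lower, Sfrp4 was not called, and Dkk1, Dkk2, Dkk4 and Sfrp5 were not tested. Sfrp1, which binds Wnts and Frizzleds outside the cell, had 347, 563 and 517 CPM in control tumours, against 30.8, 40.1 and 24.9 CPM in cortex. All 3 tumours stood well above cortex, with a log2 fold change of 3.72 ± 0.23 (adjusted p = 2.92e-06 by limma). Per exon length Sfrp1 was, by the mean, the most abundant inhibitor of each tumour group, at 109 ± 26 RPKM in control tumours and 7.30 ± 1.75 RPKM in cortex. In ETV5 tumour 2, however, Dkk3 led at 90.9 RPKM, against 30.05 RPKM for Sfrp1. Sfrp2, of the same family, had 8.05, 5.83 and 5.75 CPM in control tumours and 2.15, 2.01 and 2.78 CPM in cortex (1.28 ± 0.29 on the log2 scale, adjusted p = 0.00383). Beside these rises, 6 of 8 meningeal fibroblast markers were higher in control tumours and 1 was lower, with the sums given above. Of 8 microglia and macrophage markers, 7 were higher and 1 lower, and they summed to 2166 to 4721 CPM in control tumours and 468 to 544 CPM in cortex. Of 7 pericyte and smooth muscle markers 6 were higher, at a sum of 392 to 459 CPM in control tumours and 87.6 to 111 CPM in cortex. Of 9 endothelial markers 6 were higher and 1 lower, at 382 to 488 CPM in control tumours and 175 to 228 CPM in cortex. The part of these cells in the members that rose was not tested.

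Dkk3, a divergent Dickkopf protein whose effect on Wnt signalling depends on context and which neurons express, had 129.8, 92.5 and 119 CPM in control tumours, against 322, 306 and 172 CPM in cortex. The groups did not overlap (log2 fold change -1.36 ± 0.24, adjusted p = 0.00104 by limma). When all groups shared 1 estimate of the spread, the adjusted p was 0.119, and that of Wnt2 was 0.0886. Dkk1, the classical inhibitor of Lrp5 and Lrp6, had 0 reads in control tumours, and Dkk4 had none in any library.

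R-spondins raise Wnt signalling by binding Lgr receptors and drawing Rnf43 and Znrf3 off the cell surface. Rspo1 (chromosome 4, 124986430 to 125009099, plus strand) had 59.6, 25.6 and 90.3 CPM in control tumours, against 2.02, 4.53 and 6.40 CPM in cortex, and the groups did not overlap (log2 fold change 3.52 ± 0.51, adjusted p = 0.0003 by limma). Rspo2 moved the other way, with 1.17, 1.43 and 2.07 CPM in control tumours and 20.2, 13.8 and 6.26 CPM in cortex (-3.05 ± 0.44, adjusted p = 0.000302). Rspo3 was not called (-0.76 ± 0.36), with 5.93, 4.18 and 11.3 CPM in control tumours and 11.2, 11.4 and 7.66 CPM in cortex. Lgr4, the widely expressed R-spondin receptor, was higher at 58.3, 50.4 and 89.4 CPM in control tumours, against 31.2, 26.8 and 25.5 CPM in cortex (1.03 ± 0.20, adjusted p = 0.00144). Lgr5, the stem cell marker of the gut, had 0.741, 0.550 and 3.83 CPM in control tumours and 1.61, 2.18 and 2.65 CPM in cortex and was not called. Without control replicate 3 it was called lower (-1.68, adjusted p = 0.0078). Lgr6 was not called (0.50 ± 0.51).

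The promoter of Rspo1 (chr4:124986180-124986479, plus strand, GRCm38.p6, RefSeq) is shown because RELA, part of the fusion, belongs to the family that reads kappaB motifs and Rspo1 had the largest rise among the tested members whose promoter holds one. The motif was found in 6 members, the other 5 being Fzd5, Sfrp2, Tcf7l2, Wnt10b and Wnt16. Of the 44 promoter entries of the members, 6 hold it on either strand, and 8.46% of all promoters do. Capitals mark overlapping matches to the kappaB consensus at the gene's start.
Rspo1: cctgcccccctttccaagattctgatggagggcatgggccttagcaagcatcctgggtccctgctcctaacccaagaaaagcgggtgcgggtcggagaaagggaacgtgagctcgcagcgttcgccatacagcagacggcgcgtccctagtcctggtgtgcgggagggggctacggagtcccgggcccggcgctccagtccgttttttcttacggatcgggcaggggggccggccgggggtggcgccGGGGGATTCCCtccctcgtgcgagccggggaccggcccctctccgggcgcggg
The match describes the sequence alone, and binding of RELA or of the fusion was not measured in these files.

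All 4 TCF/LEF factors were higher in control tumours. Tcf7, the factor first known from T cells, had 34.1, 19.3 and 36.5 CPM in control tumours, against 3.22, 2.52 and 3.90 CPM in cortex (log2 fold change 2.97 ± 0.28, adjusted p = 2.36e-05 by limma). The 7 measured T lymphocyte markers summed to 6.86 to 28.5 CPM in control tumours and 5.51 to 22.8 CPM in cortex. Of these, Cd3e, Cd3g and Cd2 were at 0 in all cortex libraries, and no marker was at 0 in all control tumours. Cd4 alone gave 19.2 CPM in cortex replicate 3, the highest cortex sum. The part of T cells in the Tcf7 value was not tested. Tcf7l1, mostly a repressor, rose by 1.70 ± 0.33 on the log2 scale. Tcf7l2 had 27.3, 26.6 and 27.6 CPM in control tumours and 13.03, 5.20 and 7.24 CPM in cortex (1.60 ± 0.30, adjusted p = 0.00125). Lef1 had 9.42, 16.2 and 11.7 CPM in control tumours and 5.64, 3.69 and 3.34 CPM in cortex (1.36 ± 0.30, adjusted p = 0.00356). No library overlapped between the groups for any of the 4.

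Of the 4 widely used targets within the set, 1 was higher in control tumours. Znrf3, the ubiquitin ligase that removes Frizzleds from the membrane, had 42.2, 45.2 and 57.3 CPM in control tumours and 13.4, 12.1 and 11.8 CPM in cortex (log2 fold change 1.76 ± 0.15, adjusted p = 1.41e-05 by limma). Its relative Rnf43 had 3.28, 1.87 and 3.03 CPM in control tumours, against 2.82, 3.86 and 3.34 CPM in cortex, and was not called (-0.47 ± 0.33, adjusted p = 0.227). Axin2 had 32.2, 18.5 and 21.2 CPM in control tumours and 27.1, 22.0 and 25.2 CPM in cortex. The groups overlapped, and the 95% interval of the log2 fold change of Axin2 ran from -0.74 to 0.23 around -0.25 (adjusted p = 0.305). Without control replicate 1, the highest, Axin2 was called lower at -0.49 (adjusted p = 0.0226). Axin1, the constitutive scaffold, had 79.5, 69.6 and 64.2 CPM in control tumours and 25.7, 22.5 and 25.9 CPM in cortex (1.35 ± 0.13, adjusted p = 3.15e-05). No library overlapped between the groups for Axin1.

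**Figure D3:**
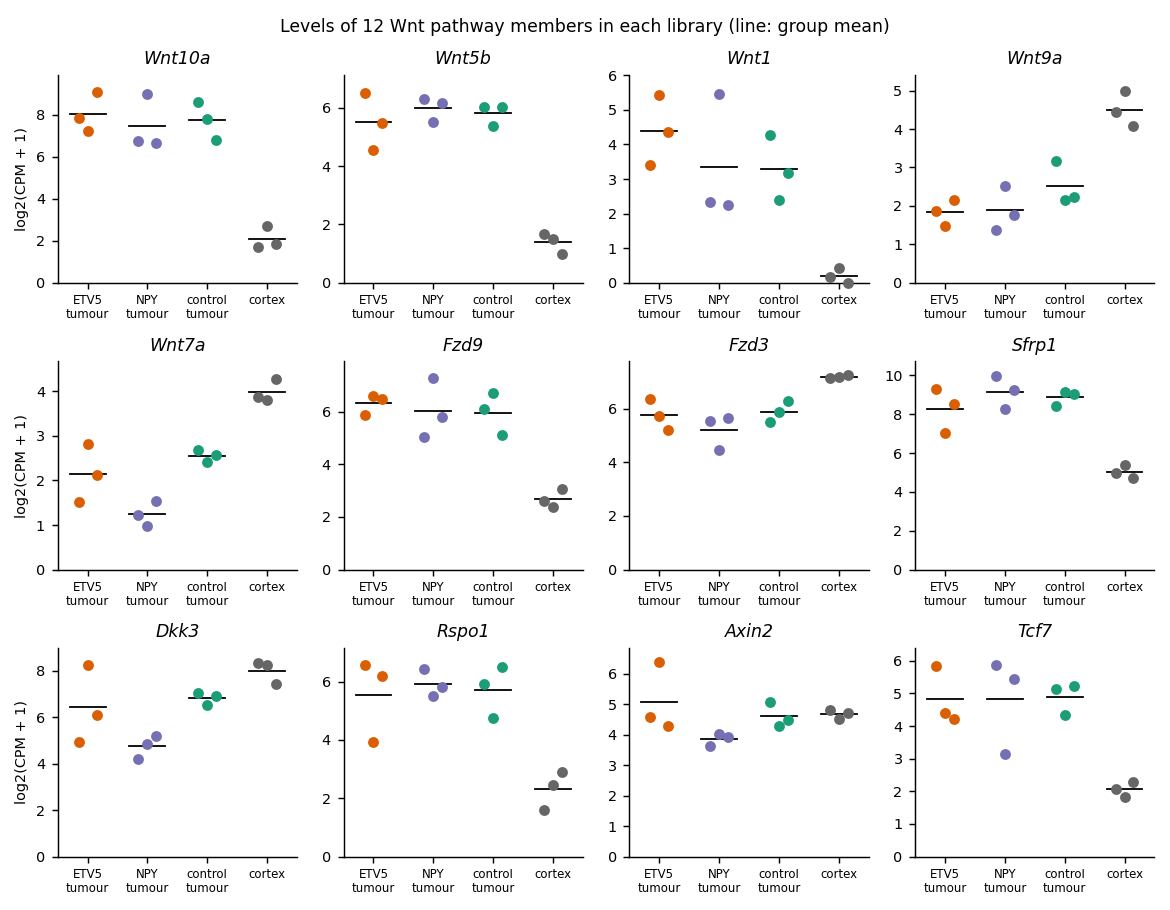
Level of 12 members in each library as log2(CPM + 1), with a point per library and a line at the mean of each group of 3. Wnt10a, Wnt5b, Wnt1, Fzd9, Sfrp1, Rspo1 and Tcf7 lie higher in all 9 tumours than in cortex, Wnt9a, Wnt7a and Fzd3 lie lower, and Axin2 and Dkk3 overlap with cortex.

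Other genes of the pathway, in lists chosen with earlier results of these data known, were counted in the same fit. Of 78 genes, 69 were tested, and 29 were higher (42%) and 27 lower (39.1%) in control tumours, shares close to those of all genes (35.7% higher and 36.2% lower), beside which the shares of the lists that follow are to be read. Membrane receptors other than Frizzleds were mostly higher, 9 of 11 (81.8%) against 1 lower (9.09%): Ror2, a receptor of Wnt5a, had 41.7, 51.3 and 26.3 CPM in control tumours and 2.02, 0.503 and 0.278 CPM in cortex (log2 fold change 5.40 ± 0.59, adjusted p = 5.39e-05 by limma). The co-receptor Lrp5 was higher by 3.999 ± 0.17 and Adgra2, which works with Reck in Wnt7 reception, by 3.04 ± 0.22, whereas Musk was lower (-2.02 ± 0.48). Among 10 genes of secretion and the extracellular space, 5 (50%) were higher, led by the glypicans Gpc4 (4.16 ± 0.20) and Gpc3 (3.63 ± 0.33) and by Wls (2.31 ± 0.16), which carries Wnts to the cell surface. Another 4 (40%) were lower, led by Dkkl1 (-3.995 ± 0.47), the antagonist Sostdc1 (-3.89 ± 0.60) and Porcn (-2.26 ± 0.15), the acyltransferase that adds the Wnt lipid.

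Within the cytoplasm and nucleus, 5 of 27 genes were higher (18.5%) and 15 lower (55.6%) in control tumours. The lower ones were led by Dact2 (log2 fold change -3.87 ± 0.18), Apc2 (-3.08 ± 0.16) and Apc (-3.04 ± 0.16), the last a core part of the destruction complex with 130.4, 156 and 164 CPM in control tumours and 1234, 1214 and 878 CPM in cortex. Ctnnb1, which encodes beta-catenin, was lower by a small step (-0.29 ± 0.11, adjusted p = 0.0451 by limma), and Dact1 (1.33 ± 0.27), Tle3 (1.30 ± 0.20) and Dvl2 (1.198 ± 0.23) were higher. In the planar polarity list 3 of 12 genes (25%) were higher (Celsr1, 2.42 ± 0.23; Prickle3, 1.85 ± 0.38; Vangl1, 1.14 ± 0.25) and 7 (58.3%) were lower, led by Prickle2 (-3.28 ± 0.26), Celsr3 (-3.24 ± 0.22) and Prickle1 (-2.84 ± 0.21). Of 14 further genes known as beta-catenin targets, 9 were tested, and of these 7 were higher (77.8%) and none was lower. Nkd1 (0.12 ± 0.29) and Apcdd1 (0.51 ± 0.21) were not called. Sp5, Sp8, Ascl2, Cdx1 and T had too few reads for this test. The higher ones were led by Cd44 (3.91 ± 0.31), Ccnd1 (3.59 ± 0.19) and Msx2 (3.501 ± 0.67). Nkd2, a feedback inhibitor that binds Dishevelled, was close to these at 3.48 ± 0.36, with 56.5, 74.5 and 34.0 CPM in control tumours and 5.91, 2.68 and 4.18 CPM in cortex. The neuron marker levels given above fell in the same comparison, and their part in the lower calls of these lists was not tested. Marker sums of fibroblasts, macrophages, pericytes and endothelium, also given above, rose. Their part in the higher calls of these lists was not tested either.

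Overexpression of ETV5 was compared with control tumours to ask which of these genes differed. Of 43 members tested, none was called, as was the case for all 14382 genes (0% called by limma; edgeR called 0 and DESeq2 76 genes, no member among them). At an unadjusted p under 0.05 there were 2 members and 944 genes. The libraries did not overlap for 1 member that was higher (2.33%, against 7.1% of all genes) and 4 that were lower (9.3%, against 7.08%). The higher one was Axin1, with 96.6, 96.3 and 93.4 CPM in ETV5 tumours and 79.5, 69.6 and 64.2 CPM in control tumours (log2 fold change 0.42 ± 0.15, adjusted p = 0.732 by limma). The lower ones were Sfrp4, Sfrp2, Fzd8 and Wnt2b. Sfrp4 had 1.57, 0.747 and 0.0886 CPM in ETV5 tumours and 1.80, 2.09 and 5.27 CPM in control tumours (-2.05 ± 0.85). Sfrp2 had 5.38, 2.84 and 3.01 CPM in ETV5 tumours and 8.05, 5.83 and 5.75 CPM in control tumours (-0.84 ± 0.37).

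The next lowest unadjusted p belonged to Wnt9a (log2 fold change -0.85 ± 0.48) and Wnt1 (1.18 ± 0.69). Wnt10a gave 0.30 with a 95% interval from -1.19 to 1.79, Fzd9 0.35 from -0.73 to 1.43, and Fzd3 -0.12 from -0.89 to 0.64. Of the TCF/LEF factors, Lef1 gave 0.02 from -0.69 to 0.72, Tcf7 -0.09 from -1.22 to 1.04, Tcf7l1 -0.003 from -0.91 to 0.91 and Tcf7l2 0.25 from -0.45 to 0.95. A p above the threshold does not show that these levels were equal. Axin2 stood at 23.1, 81.6 and 18.6 CPM in ETV5 tumours, against 32.2, 18.5 and 21.2 CPM in control tumours. ETV5 tumour 2 alone exceeded the controls, and the log2 fold change was 0.48 with all libraries and -0.17 without that one. Lgr5 likewise gave 0.61 with all libraries and -0.27 without ETV5 tumour 1. Znrf3 (-0.14 ± 0.28) and Rnf43 (-0.29 ± 0.49) were not called. Of the further pathway genes, none of 67 tested was called.

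NPY tumours differed from control tumours in 1 member, Dkk3. Over all 14425 genes, 0.728% were called higher and 4.31% lower. Of 40 members tested, none was higher and 1 (2.5%) was lower. Dkk3 (chromosome 7, 112116017 to 112159057, minus strand) had 17.5, 27.9 and 36.0 CPM in NPY tumours, against 129.8, 92.5 and 119 CPM in control tumours. The highest NPY tumour stood below the lowest control tumour, and the log2 fold change was -2.03 ± 0.28 (adjusted p = 0.0182 by limma). The call did not outlast the loss of any 1 control library: the adjusted p was 0.0719, 0.078 and 0.0882 without control replicates 1, 2 and 3, at log2 fold changes of -1.92, -2.15 and -2.001. Beside it, 9 of 11 neuron markers were lower in NPY than in control tumours, with the sums given above, and astrocyte markers summed to 229 to 802 CPM in NPY tumours and 1873 to 2180 CPM in control tumours. Among ETV5 tumours, Dkk3 was 305 CPM in tumour 2, where neuron markers summed to 846 CPM, and 29.7 and 67.7 CPM in tumours 1 and 3, where they summed to 63.8 and 269.9 CPM. In control tumours 1, 2 and 3, Dkk3 was 129.8, 92.5 and 119 CPM, beside neuron marker sums of 541, 673 and 1296 CPM. Dkk3 and the sums did not share an order there. In NPY tumours 1, 2 and 3 they did share one, with Dkk3 at 17.5, 27.9 and 36.0 CPM. The neuron marker sums of these tumours were 57.0, 59.5 and 67.9 CPM. The part of these cells, and of the library codes, in the Dkk3 value was not tested.

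Wnt7a was the next member by p. It had 1.34, 0.974 and 1.91 CPM in NPY tumours, against 5.40, 4.29 and 4.95 CPM in control tumours, and the groups did not overlap. The log2 fold change was -1.67 ± 0.36 (adjusted p = 0.0509 by limma), and it was called by DESeq2 (adjusted p = 0.00629), with TMM factors (0.0493) and with a pseudocount of 5 (0.043). Over the members, the libraries did not overlap for 2 that were higher (5%, against 11.1% of all genes) and 6 that were lower (15%, against 18.4%), so both shares were below those of all genes. The higher ones were Wnt11, with 23.8, 15.1 and 10.97 CPM in NPY tumours and 10.7, 4.62 and 7.50 CPM in control tumours (1.21 ± 0.40, adjusted p = 0.138), and Axin1 (0.54 ± 0.18, adjusted p = 0.144). The lower ones were Dkk3, Wnt7a, Rspo2, Axin2, Tcf7l2 and Wnt2b.

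Axin2 had 11.3, 15.1 and 14.1 CPM in NPY tumours, against 32.2, 18.5 and 21.2 CPM in control tumours. The log2 fold change was -0.71 ± 0.26, with an unadjusted p of 0.03 and an adjusted p of 0.164 by limma across all genes. Tcf7l2 was nearly constant within each group, at 20.3, 20.7 and 20.0 CPM in NPY tumours and 27.3, 26.6 and 27.6 CPM in control tumours (-0.33 ± 0.14, adjusted p = 0.223). Rspo2 had 0.486, 0.122 and 0.668 CPM in NPY tumours and 1.17, 1.43 and 2.07 CPM in control tumours (-1.68 ± 0.61, adjusted p = 0.159). Lef1 gave -1.18 with a 95% interval from -2.80 to 0.43, Tcf7l1 -0.54 from -1.48 to 0.39, and Tcf7 -0.02 from -1.74 to 1.71. Wnt10a gave -0.17 from -1.92 to 1.57, Fzd9 0.16 from -1.41 to 1.73, Fzd3 -0.60 from -1.47 to 0.26 and Wnt9a -0.72 from -1.98 to 0.55. Znrf3 (-0.07 ± 0.19), Rnf43 (-0.61 ± 0.45) and Lgr5 (-0.30 ± 0.92) were not called.

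Of 68 further pathway genes tested, 7 were called lower in NPY tumours (10.3%, against 4.31% of all genes) and none higher (0.728% of all genes). Porcn had 3.40, 4.26 and 4.48 CPM in NPY tumours, against 15.9, 11.4 and 14.4 CPM in control tumours (log2 fold change -1.66 ± 0.25, adjusted p = 0.0219 by limma). Apcdd1, a membrane inhibitor of Wnt signalling and itself a beta-catenin target, had 27.1, 37.4 and 32.8 CPM in NPY tumours and 65.7, 64.2 and 66.9 CPM in control tumours (-0.94 ± 0.16, adjusted p = 0.0289). The other 5 were Celsr3 (-2.46 ± 0.38), Dact2 (-2.22 ± 0.44), Apc2 (-1.48 ± 0.23), Dact3 (-1.35 ± 0.27) and Ctnnbip1 (-1.01 ± 0.21), an inhibitor of the contact between beta-catenin and TCF factors. Over all genes, 727 were called with all libraries, and 138, 1 and 78 without control replicates 1, 2 and 3. At most 1 of the 7 calls here could therefore remain without control replicate 2. The neuron markers that fell in the same comparison are given above. Their part in these calls, and that of the library codes, was not tested.

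**Figure D4:**
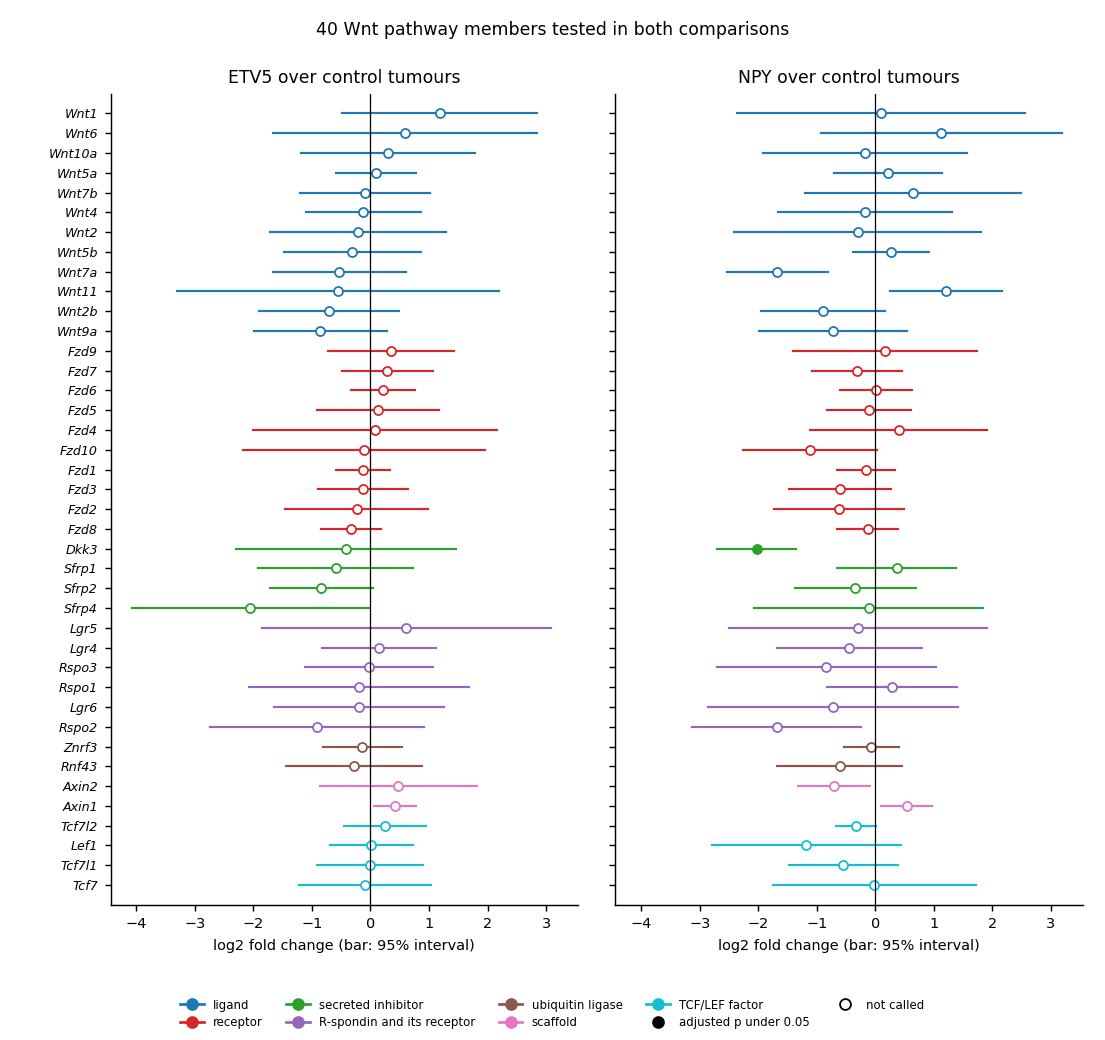
Log2 fold change of the 40 members tested in both comparisons, ETV5 over control tumours (left) and NPY over control tumours (right), with 95% intervals; both use the same 3 control libraries. Dkk3 in NPY tumours is the sole filled point, and most intervals cross 0.

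ETV5 and NPY tumours were set against each other on reads scaled together over the 9 tumours. Of 38 members tested none was called, and none of 14023 genes was (0% called by limma; edgeR 0, DESeq2 56, none of them a member). No member, but 831 genes, had an unadjusted p under 0.05. The libraries did not overlap for 2 members that were higher with ETV5 (5.26%, against 7.47% of all genes) and for none that was lower (4.98% of all genes). These 2 were Axin2, with 23.1, 81.6 and 18.6 CPM in ETV5 tumours and 11.3, 15.1 and 14.1 CPM in NPY tumours (log2 fold change 1.22 ± 0.54), and Tcf7l2, with 26.2, 51.9 and 25.5 CPM in ETV5 tumours and 20.3, 20.7 and 20.0 CPM in NPY tumours (0.62 ± 0.29), both at an adjusted p of 0.794 by limma. Dkk3 gave 1.65 with a 95% interval from -0.28 to 3.57, and Wnt7a 1.17 from -0.15 to 2.501, so the fall of Dkk3 seen with NPY was not shown to differ from the value with ETV5. Lef1 (1.23 ± 0.68), Sfrp4 (-1.94 ± 1.08), Lgr5 (0.95 ± 1.06), Tcf7l1 (0.58 ± 0.49), Fzd3 (0.51 ± 0.42), Wnt10a (0.51 ± 0.76), Rnf43 (0.36 ± 0.57), Fzd9 (0.23 ± 0.57), Wnt9a (-0.10 ± 0.55), Tcf7 (-0.04 ± 0.82) and Znrf3 (-0.03 ± 0.31) were not called either.

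Some single tumours held the extremes of many members. The same count was not made over all genes, so whether this is particular to the members was not tested. Over the 9 tumours the ratio of the highest to the lowest CPM was taken for the 40 members tested against cortex. Wnt3, which had 0 reads in 3 tumours, was left out. The ratio ran from 1.6 for Fzd8 to 86.4 for Sfrp4. The lowest Sfrp4 value was a count of 1 read, in ETV5 tumour 3, so that ratio is very uncertain. ETV5 tumour 1 held the highest value of 12 members, among them Fzd4 at 72.6 CPM, where the other 8 tumours ranged from 7.79 to 39.3 CPM, and Lgr5 at 7.09 CPM. ETV5 tumour 2 held the highest value of 7, including Axin2 (81.6 CPM), Tcf7l2 (51.9 CPM), Fzd10 (28.8 CPM) and Dkk3 (305 CPM), together with the lowest Sfrp1 (131 CPM), Wnt5b (22.4 CPM), Wnt11 (0.747 CPM) and Rspo1 (14.1 CPM). NPY tumour 2 held 7 highest values, including Wnt7b at 156 CPM, Fzd9 at 155 CPM and Wnt1 at 43.1 CPM, and 10 lowest, including Tcf7 at 7.91 CPM and Lgr4 at 18.9 CPM. NPY tumour 1 held 11 lowest values, including Lef1 at 1.82 CPM, and the highest Tcf7 (57.8 CPM) and Sfrp1 (982 CPM). Tcf7 and Lef1 therefore ranged in opposite order in these 2 NPY tumours, as Lef1 was 12.8 CPM in NPY tumour 2.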

How the data were processed

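The authors deposited 2 tables of a normalized signal per gene, one with cortex, control and ETV5 libraries and one with control and NPY libraries; each value was a read count divided by 1 size factor per library. Per the submitters' processing notes, the tools were STAR 2.5.0a, DESeq2 1.30.1, FastQC 0.11.7 and MultiQC 1.6, with build mm10; what counted the reads, and on which annotation, is not given in the sources used here. Per the labels, polyA RNA went into stranded paired-end libraries. Division by the smallest positive value of a library gave whole reads for 100% of its values (tolerance 0.01 read), with identical control reads in both tables. These reads gave CPM and, with exon lengths of GENCODE M21 (mm10, the source of the positions), RPKM.

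Groups came from the sample titles. limma 3.58.1 (R 4.3.3; trend, robust) was run on log2(deposited signal + 1) over all genes, on the 2 groups compared, after the edgeR filter (10 reads, 15 in total). For ETV5 against NPY, reads were scaled by median of ratios over the 9 tumours. Tests were two-sided with Benjamini-Hochberg adjustment, called under 0.05. Such fold changes understate those of low genes. The whole-read count alternatives, edgeR 4.0.16 and DESeq2 1.42.0, and the other alternatives are given in the closing section; scripts were tested on simulated data. The members, marker and pathway lists and naming rule were chosen with earlier results of these data known. Named were all called members (the 12 largest in each direction if over 24), the 6 lowest p where fewer than 3 were called, Lef1, Tcf7, Tcf7l1, Tcf7l2, Axin2, Rnf43, Znrf3, Lgr5 and the most abundant Wnt and Fzd; other names were chosen after their values were seen.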

Additional observations from a re-analysis of the deposited data

How the results depend on the processing

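The 26 named members of the tumour to cortex comparison gave 364 values under the alternatives (edgeR, DESeq2, TMM factors, pseudocounts of 5 and 0.5, no filter, a spread shared by all groups, a replicate block, and each library left out); 359 kept direction and call, 3 lost the call, 2 gained one and none reversed. Among the called ones the fold moved by over 1.5 times for Wnt11 (log2 fold change 4.21; 2.96 with a pseudocount of 5, 3.43 and 4.92 without cortex replicates 2 and 3) and Wnt1 (5.01; 5.85 by edgeR, 5.97 by DESeq2 and 3.48 with a pseudocount of 5). The members called higher numbered 21 to 23 and lower 8 to 11 with each library left out. With each left out in turn, 0 members were called for ETV5 against control or NPY, and 0 to 1 lower and 0 higher for NPY against control. For NPY against control, DESeq2, TMM factors, a pseudocount of 5 and no filter each called 2 members lower (Wnt7a, or Wnt3 with no filter, beside Dkk3). The replicate numbers showed no pairing (correlations of same-numbered libraries -0.407 to 0.365), and with the replicate block 0 members (Dkk3 at an adjusted p of 0.0508) and 264 genes in place of 727 were called. All genes called numbered 1833 by DESeq2 (606 higher, 33.1%, against 14.4% by limma) and 1 to 571 with a library left out, with 125 without NPY replicate 1 and 138, 1 and 78 without control replicates 1, 2 and 3. For ETV5 against NPY 56 genes were called by DESeq2 and 1 with no filter, a shared spread or without NPY replicate 2. A shared spread could not be run for NPY against control, as that table holds those groups alone.

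Direction changed only among values that passed no test. For ETV5 against control, the log2 fold change ranged, with each library left out, from -0.074 to 0.43 (Tcf7l2), -0.17 to 0.86 (Axin2), -0.12 to 0.75 (Fzd9), -0.27 to 1.38 (Lgr5), -0.63 to 0.041 (Rnf43), -0.36 to 0.15 (Znrf3), -0.25 to 0.73 (Wnt10a), -0.41 to 0.13 (Fzd3), -0.60 to 0.20 (Tcf7), -0.16 to 0.25 (Lef1) and -0.30 to 0.31 (Tcf7l1). Tcf7 was 0.11 by edgeR and 0.090 by DESeq2, and Tcf7l1 was 0.11 by edgeR, 0.090 by DESeq2, 0.031 with TMM factors and 0.00020 with a pseudocount of 5. For NPY against control it ranged from -0.22 to 0.052 (Znrf3), -0.77 to 0.48 (Lgr5), -0.48 to 0.67 (Fzd9), -0.94 to 0.26 (Wnt10a) and -0.56 to 0.85 (Tcf7), with 0.040 and 0.074 for Wnt10a and 0.32 and 0.34 for Tcf7 by edgeR and DESeq2. For ETV5 against NPY it ranged from -0.024 to 1.28 (Wnt10a), -0.017 to 0.70 (Rnf43), -0.28 to 0.86 (Fzd9), -0.46 to 0.32 (Wnt9a), -0.29 to 0.26 (Znrf3) and -0.91 to 0.50 (Tcf7), with -0.043 and -0.050 for Fzd9 and 0.033 and 0.029 for Znrf3 by edgeR and DESeq2. The cause of these changes was not tested. With 3 libraries a group, members of a few CPM have wide intervals.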
